A study of Mus musculus with 12 samples.

Results

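The Maf transcription factors are a small branch of the basic leucine zipper proteins, and their transcripts were followed here in dorsal root ganglia, the clusters of sensory neuron cell bodies beside the spinal cord. The genes were chosen by symbol, as all array probes annotated to Maf, Mafa, Mafg, Mafk, Maff and Nrl, whatever their values. These 6 genes have 9 probes among the 23978 probes with a gene symbol, which cover 16593 genes. Maf, Mafg, Mafk and Nrl have 1 probe each, Maff has 2 and Mafa has 3. Only the Maf and Mafg probes were detected on enough arrays to enter the test over all detected probes, and the other 7 probes lay at or near the background of the arrays.

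Single-colour Illumina BeadChips were hybridised with total RNA from 12 pools of ganglia of lumbar levels 3 to 6, taken from mice 15 days old. The 6 control pools are called wildtype in the labels, and the 6 mutant pools came from Isl1-Cre//c-Maf conditional mutants. All mice were of a mixed C57/BL6 and 129Ola background. In the mutants, Cre is made under the control of Isl1, a gene that is active in sensory neurons from early development, so Maf is targeted in those neurons and in other cells that use Isl1, while other cells of the ganglion keep an intact gene. The labels do not say how many mice made a pool, whether the controls carried Cre or a floxed allele, or whether the pools of a group came from separate animals, so the p-values measure the spread between these pools. The array identifiers in the labels put pools 1 to 3 of each group on a first BeadChip and pools 4 to 6 of each group on a second.

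Maf, Mafa and Nrl are large Maf proteins, which have an activation domain and switch genes on. Maf, also called c-Maf, takes part in the differentiation of touch-sensing neurons of the ganglion, of lens fibre cells and of some T cells and macrophages. Mafa drives insulin transcription in pancreatic beta cells and marks early Ret-positive mechanoreceptors in the embryonic ganglion, and Nrl directs photoreceptors towards the rod type. Mafg, Mafk and Maff are small Maf proteins, which have no activation domain and act through partners: with a cap'n'collar protein such as NRF2 they activate antioxidant genes, and with each other or with a Bach protein they repress. All of them bind Maf recognition elements, DNA sites with an AP-1-like or CRE-like core flanked by TGC or GCA.

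The material had the markers of a sensory ganglion. The brightest of the tested sensory neuron markers were Nefh, a neurofilament subunit, Prph, the neurofilament protein peripherin, and Avil, an actin-binding protein of sensory neurons. The mean log2 level over the 7 tested of 10 listed sensory neuron markers ran from 11.30 to 11.50 in the controls and from 11.26 to 11.45 in the mutants. Of 6 markers of spinal motor neurons and oligodendrocytes, none was detected on enough arrays to be tested. Between 12822 and 13491 probes were detected per array. Mutant pool 3 correlated least with the other arrays, at a mean of 0.9805.

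Maf transcript was present in every control pool and was not detected in any mutant pool. On the scale of the deposited intensity, which was not corrected for background, the Maf probe read 269, 217, 217, 209, 182 and 293 in control pools 1 to 6. It read 72.4, 58.9, 65.5, 57.3, 63.2 and 63.7 in mutant pools 1 to 6. The groups did not overlap, and the dimmest control pool stood well clear of the brightest mutant pool. The detection p-value, which sets a probe against the negative control probes of its array, was 0 in all 6 control pools and between 0.333 and 0.845 in the mutant pools, so the mutant readings were those of background.

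After background correction and quantile normalization the log2 level of Maf was 7.69, 7.41, 7.37, 7.11, 7.18 and 7.87 in control pools 1 to 6. The levels in mutant pools 1 to 6 were 4.70, 4.49, 4.61, 4.50, 4.57 and 4.55. The means were 7.44 ± 0.29 (SD, n = 6) in controls and 4.57 ± 0.08 (SD, n = 6) in mutants. This gave a log2 change of -2.87 (SE 0.12, 95% interval -3.12 to -2.62), with an adjusted p of 6.3e-09 in limma's moderated test with Benjamini-Hochberg adjustment. Maf had the smallest p of all 13177 tested probes, and 28 of those probes, or 0.212%, were called lower at an adjusted p under 0.05. Another 3 probes, or 0.0228%, were called higher. Full separation of the groups, with each mutant pool under the lowest control pool, was seen in 0.562% of tested probes. Maf was the targeted gene, and it entered the test through its control arrays alone. Its p-value and rank therefore only check the labels. The sources used here do not place its probe relative to the deleted stretch.

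**Figure D1:**
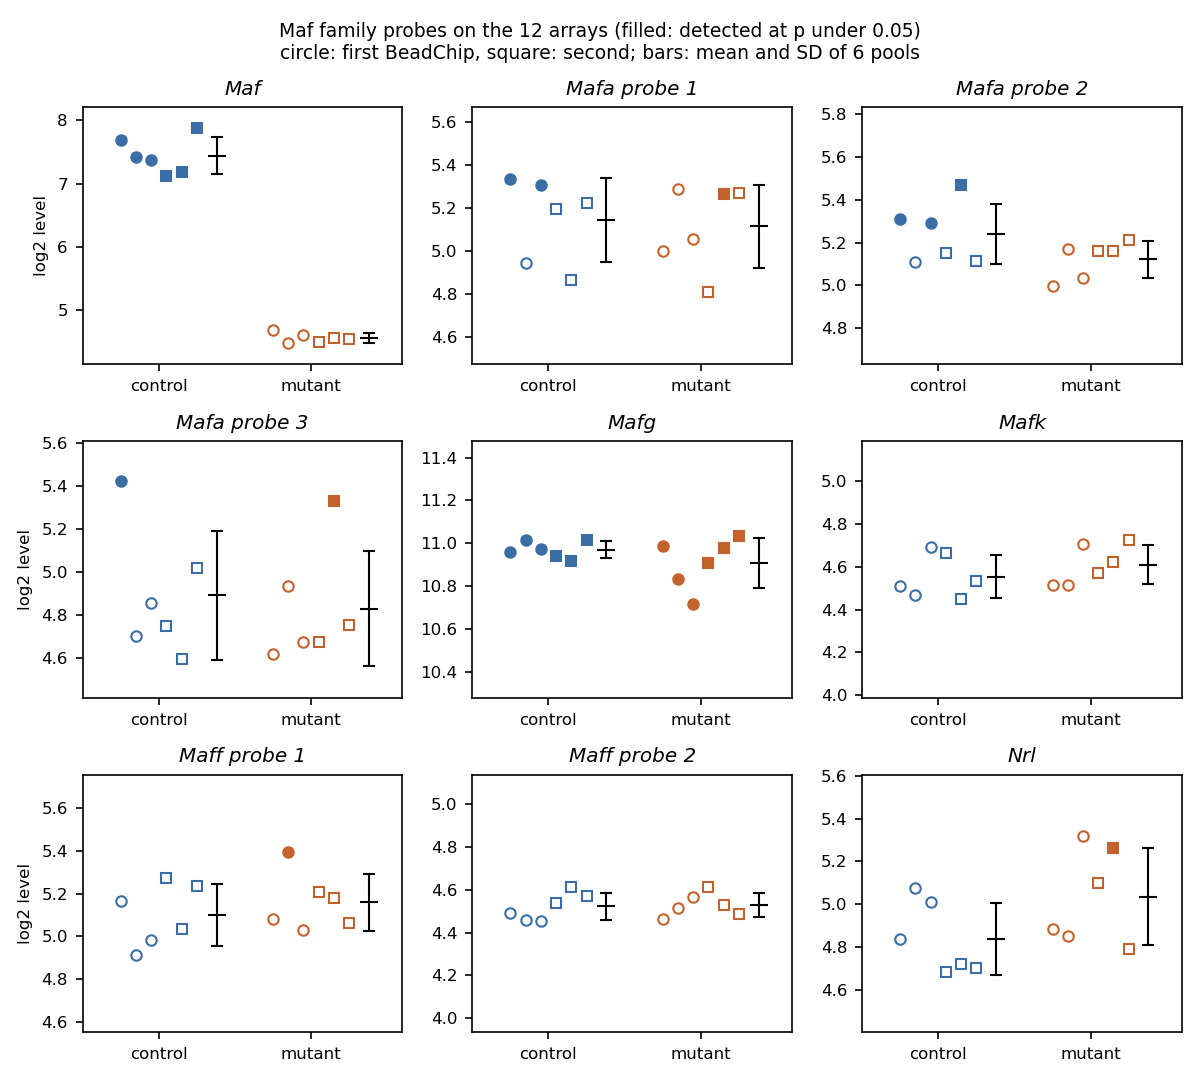
Normalized log2 level of each of the 9 Maf family probes in every pool, with controls and mutants side by side, bars for the mean and SD of 6 pools, filled symbols for detection at p under 0.05, and circles and squares for the first and second BeadChip. Maf lies between 7.11 and 7.87 in the 6 control pools and between 4.49 and 4.70 in the 6 mutant pools, and no other probe separates the groups.

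Because Maf was not well above background on any mutant array, its fold change is only a lower bound. Maf was at least 4.48-fold lower in the mutants when the mean of all control pools was set against the lowest signal detected at p under 0.05 on the mutant arrays. Taken pool by pool, that bound ran from 3.58-fold for the lowest control pool to 6.03-fold for the highest. With the floor moved up to signals detected at p under 0.01, the bound was 3.05-fold. The fitted difference of -2.87 depends on the offset of the background correction and is no bound. In RNA of whole ganglia, fewer cells with Maf and less Maf RNA per cell cannot be told apart.

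The fitted log2 change of Maf was -2.89 on the first BeadChip and -2.85 for the second. With the mutant arrays at background, these values set the control level of each chip against background and do not size the loss. No tested probe was called for a genotype by chip term in limma, with 372 of 13177 at an unadjusted p under 0.05.

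Maf varied more between control pools than most transcripts did. The authors' processed table is on a linear scale and has the same minimum, -25.1, on every array. In it the Maf probe read 190, 155, 150, 123, 130 and 218 in control pools 1 to 6, with a mean of 161 ± 36.6 (SD, n = 6). The highest pool was thus 1.77 times the lowest, and the coefficient of variation was 22.7%. Control pool 6 was the highest and control pool 4 the lowest, and both lay on the second BeadChip. The first chip's control pools had a log2 level of 7.49 ± 0.17 (SD, n = 3) and the second chip's 7.39 ± 0.42 (SD, n = 3). The SD of Maf over the control pools was above that of 87.3% of tested probes, and above that of 87.5% of the 2162 probes within 0.5 log2 units of its level. Even the lowest control pool lay 3.58-fold above the detection floor of the mutant arrays.

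Mafg was the small Maf gene detected in the ganglion, on all 12 arrays and also at p under 0.01 on all 12. Its intensity in control pools 1 to 6 was 2090, 2109, 2034, 2130, 1881 and 2215. In mutant pools 1 to 6 it was 2360, 1832, 1611, 1758, 2060 and 2218. The mutant pools were both the brightest and the dimmest, and the groups overlapped throughout. The mean log2 level was 10.97 ± 0.04 (SD, n = 6) in controls and 10.91 ± 0.12 (SD, n = 6) in mutants. The log2 change was -0.06 (SE 0.07, adjusted p = 0.941 in limma). The 95% interval of -0.21 to 0.08 corresponds to a mutant level between 0.866 and 1.06 of the control level. The change was -0.14 on the first BeadChip and 0.01 on the second, where mutant pools 2 and 3 on the first chip had the lowest levels, at 10.83 and 10.72.

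Mafa, the large Maf gene known from mechanoreceptors, was at the edge of detection. Its first probe was detected in 2 control pools and 1 mutant pool, its second in 3 control pools and in no mutant pool, and the third in 1 pool of each group. None was detected on any array at p under 0.01, and the lowest detection p-values of the 3 probes were 0.0388, 0.0301 and 0.0326. The second probe had log2 levels from 5.11 over a median of 5.22 to 5.47 in controls, and from 5.00 over 5.16 to 5.21 in mutants. Its log2 change was -0.12 (95% interval -0.26 to 0.03, exact two-sided permutation p = 0.104 over 924 groupings of the pools). The 2 chips gave -0.17 and -0.07. The first probe changed by -0.03 (95% interval -0.26 to 0.20), and the third one by -0.06 (95% interval -0.39 to 0.26). The groups overlapped at all 3 probes, and so close to background these intervals bound the signal of the probe rather than the amount of transcript.

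Nrl was detected on 1 array, mutant pool 5, with a detection p-value of 0.0476. Its log2 levels were 4.84, 5.08, 5.01, 4.69, 4.72 and 4.70 in control pools 1 to 6. They were 4.89, 4.85, 5.32, 5.10, 5.27 and 4.79 in mutant pools 1 to 6. The log2 change of 0.20 (95% interval -0.04 to 0.43) had an exact two-sided permutation p of 0.123 and an adjusted p of 0.959 in limma. The groups overlapped, and the chips gave 0.04 and 0.35, with the 3 control pools of the second chip the lowest of all.

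Mafk and Maff, the other small Maf genes, gave little or no signal above background. Mafk was detected on 0 of 12 arrays, with detection p-values from 0.302 to 0.936. Its log2 change was 0.06 (95% interval -0.07 to 0.18). The first Maff probe was detected on 1 array, mutant pool 2, with a detection p-value of 0.0401, and the second on 0 arrays. Their changes were 0.06 (95% interval -0.11 to 0.23) and 0.01 (95% interval -0.09 to 0.10). Of these probes and those of Mafa and Nrl, none was called in a limma fit over all 25697 probes, in which 0.125% of probes were called in either direction. At an unadjusted p under 0.05, 0 of these 7 probes passed, and the lowest was Nrl at 0.0899.

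**Figure D2:**
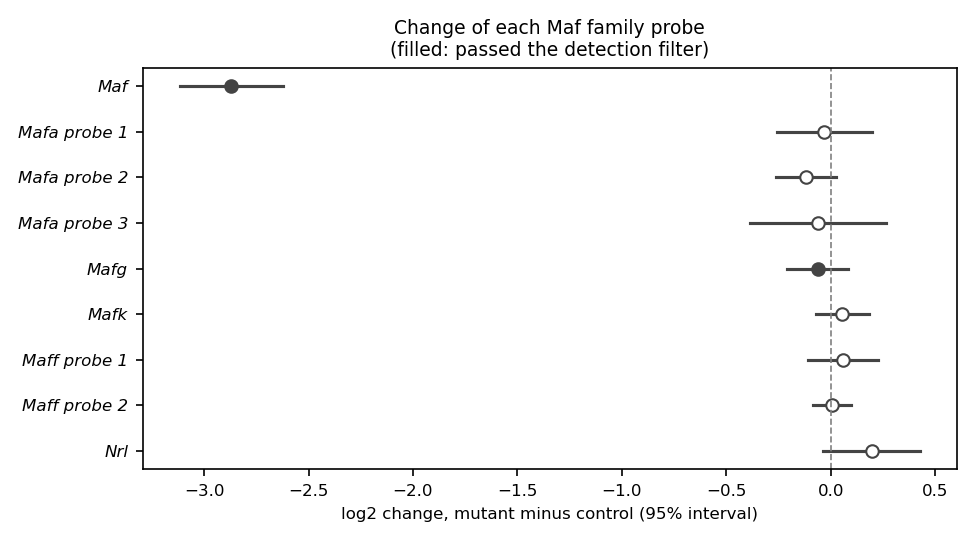
Log2 change, mutant minus control, of the 9 Maf family probes with 95% intervals from limma, filled where the probe passed the detection filter. The interval of Maf runs from -3.12 to -2.62, and the intervals of the other 8 probes include 0.

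Small Maf proteins work through partners, and transcripts of these partners were tested next. Among the cap'n'collar and Bach genes, 4 of 6 were tested, and 0 were called in limma, with 0 at an unadjusted p under 0.05. Over all genes, taking the brightest probe of each, 0.249% of 9223 were called lower and 0.0217% higher, and 6.51% had an unadjusted p under 0.05. Bach1, a haem-sensing repressor, had a median level of 7.65 in controls and 7.18 in mutants in groups that overlapped, a change of -0.28 (SE 0.22, adjusted p = 0.913 in limma). The 2 chips gave -0.57 and 0.01. Nfe2l1, which drives proteasome genes, was at 12.22 to 12.45 in controls and 12.24 to 12.64 in mutants. Nfe2l2, which encodes NRF2, changed by -0.07. Nfe2, the erythroid member, was detected on 0 arrays, and Bach2 was not analysed here.

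The genes that control NRF2 were 5 of 5 tested and 0 called, with 0 at an unadjusted p under 0.05. Cul3, the scaffold of the ubiquitin ligase that removes NRF2, changed by -0.10, and Sqstm1, the autophagy receptor that competes for Keap1, by 0.12. Of 24 listed antioxidant genes that are known targets of NRF2 with small Maf proteins, 16 were tested and 0 were called in limma. In this list 10 changes lay below 0 and 6 above, with a median of -0.02 beside 0.003 over all tested genes. Gstm1, a glutathione transferase, was the 1 gene with an unadjusted p under 0.05. Its levels were 8.07 to 8.42 in controls and 8.26 to 8.93 in mutants, which overlap, with a change of 0.26 (SE 0.11, adjusted p = 0.734 in limma). Txn1, the redox protein thioredoxin, changed by -0.13. Probes of a gene could disagree, as for Me1, where the brightest changed by -0.13 and the other by 0.62.

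Large Maf proteins can also pair with Jun and Fos. Across the partner, AP-1, ATF/CREB and C/EBP lists, 26 of 42 listed genes were tested and 0 were called in limma, with 1 at an unadjusted p under 0.05. Their changes lay below 0 for 12 genes and above 0 for 14, with a median of 0.03. Jun, the AP-1 subunit, had levels from 8.83 over a median of 9.14 to 9.24 in controls and from 8.73 over 8.87 to 8.93 in mutants. The change was -0.24 (SE 0.08, adjusted p = 0.451 in limma), with -0.21 and -0.28 on the first and second chip. Jdp2, an AP-1 repressor, changed by 0.19, and Creb5 by -0.30 (adjusted p = 0.794 in limma). Xbp1, a factor of the unfolded protein response, changed by 0.10. Cebpb, a factor of inflammatory and metabolic genes, changed by -0.13, and Cebpg, its partner without an activation domain, by -0.10. Atf4, the factor of the integrated stress response, spread most widely within the groups, from 7.33 to 10.02 in controls and from 7.46 to 10.64 in mutants, and the 95% interval of its change ran from -1.15 to 1.43.

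**Figure D3:**
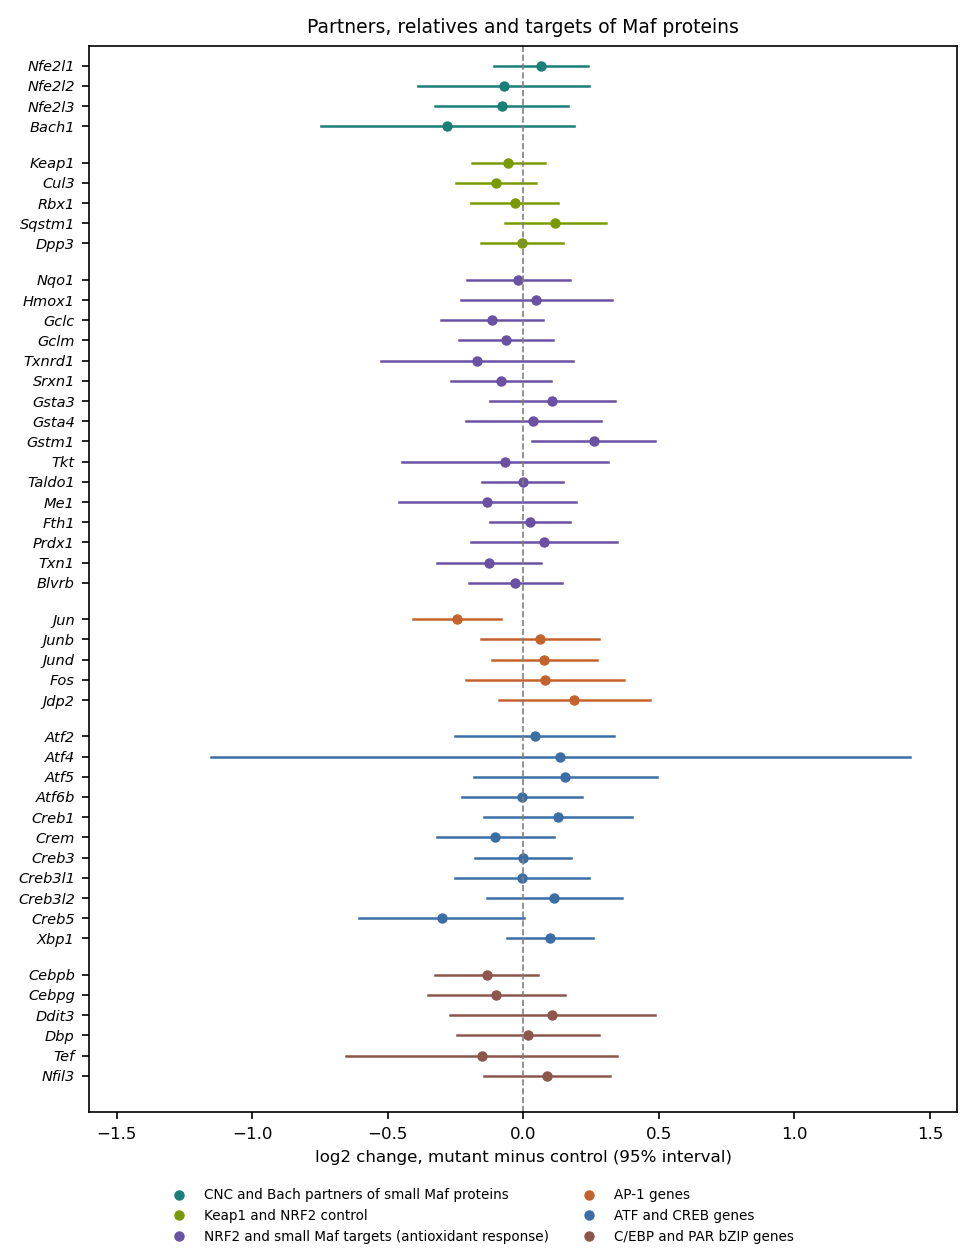
Log2 change, mutant minus control, of each tested gene among the cap'n'collar and Bach partners, the NRF2 control and antioxidant genes and the AP-1, ATF/CREB and C/EBP genes, with 95% intervals from limma and colours for the lists. The changes of the 26 tested partner and related zipper genes lie between -0.30 and 0.19, and Atf4 has the widest interval.

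Genes known as Maf targets in other tissues were largely below the detection limit here. Of 10 listed Mafa targets of beta cells 2 were tested, G6pc2 with a change of -0.03 and Glp1r with 0.07. Of 7 Nrl partners and targets of photoreceptors only Cnga1 was tested, at -0.02, and of 4 c-Maf targets of T cells and chondrocytes only Col27a1, at 0.09. None of these 4 genes was called in limma, and 0 had an unadjusted p under 0.05.

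The lens crystallins are classical targets of c-Maf in the lens. Of 9 listed, 5 were tested, all 5 changes lay below 0 with a median of -0.28, and 3 had an unadjusted p under 0.05, but only Cryba2 was called. Over all tested genes, 6.51% had an unadjusted p under 0.05 in limma and 0.249% were called lower. The list was chosen with earlier results of these data known, so its call is no independent result. Cryba2, a beta-crystallin of the lens, was at 8.82 to 10.10 in controls and 6.60 to 7.21 in mutants, and the groups did not overlap. Its log2 change was -2.38 (SE 0.21, adjusted p = 9.2e-05 in limma), with values of -2.32 and -2.44 on the 2 chips. Crybb1 was at 5.31 to 5.92 in controls and 4.82 to 5.34 in mutants (change -0.51, adjusted p = 0.247). It was detected in 6 control pools and 1 mutant pool. Crybb3 changed by -0.28 (adjusted p = 0.491 in limma) and was detected in 5 control and 2 mutant pools. Both passed the detection filter mainly through the controls, which favours changes below 0, so the shared direction of the list is no separate result.

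Promoter windows from RefSeq (GRCm38.p6), 250 bases before to 50 bases after a transcript start, were searched on both strands for TGCTGAC, the flanked end of a Maf recognition element, for the AP-1 core TGACTCA, the CRE core TGACGTCA and the antioxidant response core TGACNNNGC. A window was found for 4 of the 6 Maf genes and for 15 of the 22 genes other than Maf called lower. Cryba2 is shown because it was the called gene among known Maf targets and holds matches of both kinds, and Mafg because it was the small Maf gene with a measurable level. Capitals mark the matched bases, and each run reads 5′ to 3′ along the gene's strand.
Cryba2, chr1:74893094-74893393, minus strand: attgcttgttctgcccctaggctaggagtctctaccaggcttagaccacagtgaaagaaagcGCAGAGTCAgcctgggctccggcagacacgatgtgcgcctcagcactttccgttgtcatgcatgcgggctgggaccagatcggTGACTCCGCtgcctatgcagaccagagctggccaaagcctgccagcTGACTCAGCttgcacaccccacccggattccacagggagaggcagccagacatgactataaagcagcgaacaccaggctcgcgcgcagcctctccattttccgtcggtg
Mafg, chr11:120633498-120633797, minus strand: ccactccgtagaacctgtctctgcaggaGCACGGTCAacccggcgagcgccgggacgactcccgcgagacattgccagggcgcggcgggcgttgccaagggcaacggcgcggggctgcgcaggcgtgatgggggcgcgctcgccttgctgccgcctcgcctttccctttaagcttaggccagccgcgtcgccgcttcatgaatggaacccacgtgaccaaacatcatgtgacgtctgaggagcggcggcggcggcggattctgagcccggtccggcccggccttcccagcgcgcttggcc
In the Cryba2 window TGACTCA begins 59 bases before the start and overlaps a match of TGACNNNGC at the same base. Further TGACNNNGC matches begin 105 bases before the start and, on the other strand, 188 bases before it. The Mafg window holds 1 TGACNNNGC match, on the other strand, 222 bases before the start. Over all 32851 windows of 300 bases, 5.2% held TGACTCA, 12.4% held TGACNNNGC, 4.67% held TGCTGAC and 1.79% held TGACGTCA. Among the 20 windows of genes called lower, 3 held TGACTCA, 5 held TGACNNNGC, 2 held TGCTGAC and 0 held TGACGTCA. Of the 3 windows with TGACTCA, 2 are overlapping windows of Sphk1 that share the matched bases, and the same 2 windows are among the 5 with TGACNNNGC. A match is a run of letters and shows no binding.

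Transcripts that followed Maf from pool to pool were sought within the control pools alone, since Maf was at background in the mutants. Over the 6 control pools the highest Pearson correlations of log2 levels with Maf, among 9222 other genes, were 0.99 for Fastk, 0.98 for Slc13a3, 0.97 for Sema7a and Thnsl1 and 0.96 for Dicer1. The lowest were -0.97 for Arih2 and -0.96 for Mlx, Mettl22, Tro and Ezh1. These are descriptions over 6 points that share the arrays and their normalization. With 6 pools, 156 genes exceeded 0.8 and 183 lay under -0.8. None of the 10 named genes was called between genotypes in limma, with adjusted p-values from 0.872 to 0.997. Of the 10, 9 were again among the extremes in the processed table. Only 3 were when levels were centred within each chip, and 0 to 3 when a control pool was left out. These counts are of membership. With 1 control pool left out, Fastk itself stayed between 0.980 and 0.996, and Arih2 between -0.994 and -0.946.

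The 22 genes called lower other than Maf were mostly higher in the control pools with more Maf. Their median correlation with Maf over the 6 control pools was 0.71, beside -0.01 over all tested genes, and 17 of the 22 were above 0. The highest were Vstm2b and Cryba2 at 0.93, and the lowest was Tmem108 at -0.43. With levels centred within each chip the median was 0.75, and leaving out a control pool gave medians from 0.67 to 0.78. These settings were added after the values were seen. Other measures moved with Maf over the same pools: Nefh correlated with it at 0.71, Mafg at 0.67 and Isl1 at 0.52. The tested sensory neuron markers had a median of 0.50, with 5 of 7 above 0, and the fibroblast markers -0.47, with 0 of 5 above 0. Macrophage markers had a median of 0.22, with 8 of 10 above 0. The Schwann cell and satellite glia markers were at -0.23, with 1 of 4 above 0. The AP-1 genes were at -0.45, with 1 of 5 above 0. The genes called lower had median correlations of 0.52 with Nefh, 0.38 with Isl1 and 0.36 with Mafg. The same 6 control pools also entered the calls, and genes that vary together are not separate observations. The correlations are therefore a description of 6 pools. The part of the share of neurons in a pool was not tested.

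**Figure D4:**
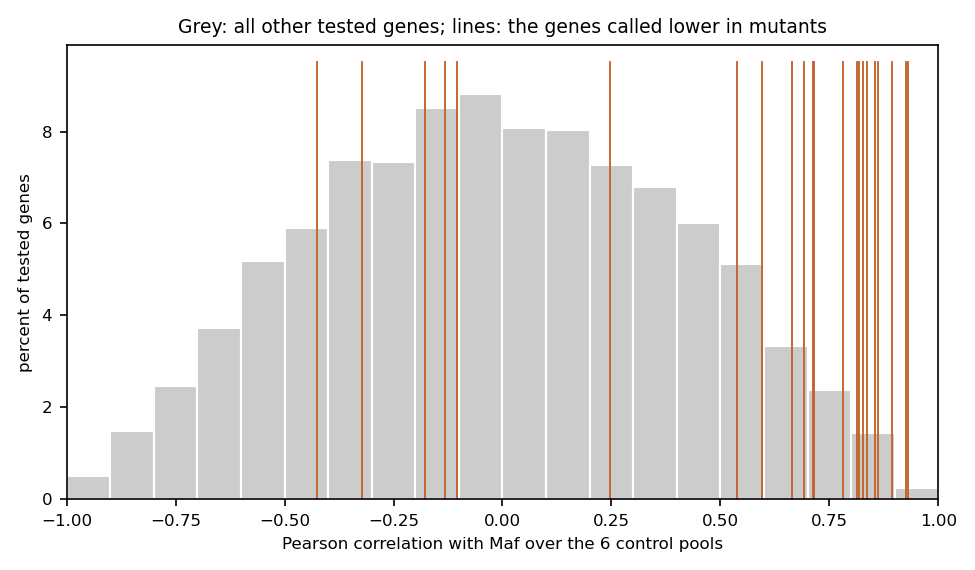
Distribution of Pearson correlations with Maf over the 6 control pools, for all tested genes other than Maf in grey and, as lines, for the 22 other genes called lower in mutants, with the percent of tested genes on the vertical axis. The called genes have a median of 0.71 and the tested genes a median of -0.01.

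Markers of the other cells of a ganglion were read beside these results. Macrophages can express Maf. The mean log2 level of the 10 tested of 13 listed macrophage markers was 6.14 to 6.73 in controls and 6.52 to 6.75 in mutants. The brightest was Lyz2, a lysozyme, at 7.38 to 7.96 in controls and 7.95 to 8.59 in mutants (change 0.56, adjusted p = 0.142 in limma), and its other tested probe changed by 0.62. Changes in this list lay above 0 for 8 genes and below 0 for 2, and of the 4 with an unadjusted p under 0.05, 2 were higher and 2 lower. The lower ones were scavenger receptors of resident macrophages. Cd163 was at 5.68 to 6.97 in controls and 4.96 to 6.92 in mutants, was detected in 6 control and 4 mutant pools, and changed by -0.71 (adjusted p = 0.783 in limma). Mrc1 had a median of 7.13 in controls and 6.68 in mutants, in groups that overlapped (change -0.35, adjusted p = 0.783 in limma). Lyz2 was detected on all 6 arrays of each group. Which cells of the ganglion gave the Maf signal of the controls was not tested. The 4 tested of 8 markers of Schwann cells and satellite glia had a mean of 9.44 to 9.75 in controls and 9.18 to 9.51 in mutants, a difference of -0.30. The brightest, Mbp, a myelin protein, was at 12.97 to 13.22 in controls and 12.57 to 13.03 in mutants (change -0.25), while the other tested probes of Mbp changed by 0.08 and 0.00. S100b, a calcium-binding protein of glia, was at 9.52 to 9.86 in controls and 9.09 to 9.46 in mutants, without overlap (change -0.36, adjusted p = 0.141 in limma). The sensory neuron list differed by -0.06, with 4 changes below 0 and 3 above. Of its genes 2 had an unadjusted p under 0.05, both lower. Nefh was at 13.13 to 13.42 in controls and 12.90 to 13.02 in mutants, without overlap (change -0.30, adjusted p = 0.131). Isl1, whose control drives Cre in the mutants, had medians of 11.65 and 11.35 in groups that overlapped (change -0.30, adjusted p = 0.771 in limma). Fibroblast markers, 5 of 5 tested and brightest for Dcn, differed by -0.18. The endothelial list, brightest for Pecam1, had 3 of 5 tested, with ranges of 5.92 to 6.28 and 5.87 to 6.25. The skeletal muscle list, brightest for Acta1, had 2 of 5 tested, with ranges of 5.64 to 5.94 and 5.72 to 6.01. No gene of these lists was called in limma, and over all tested genes 6.51% had an unadjusted p under 0.05. The part of these shifts in the changes above was not tested.

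**Figure D5:**
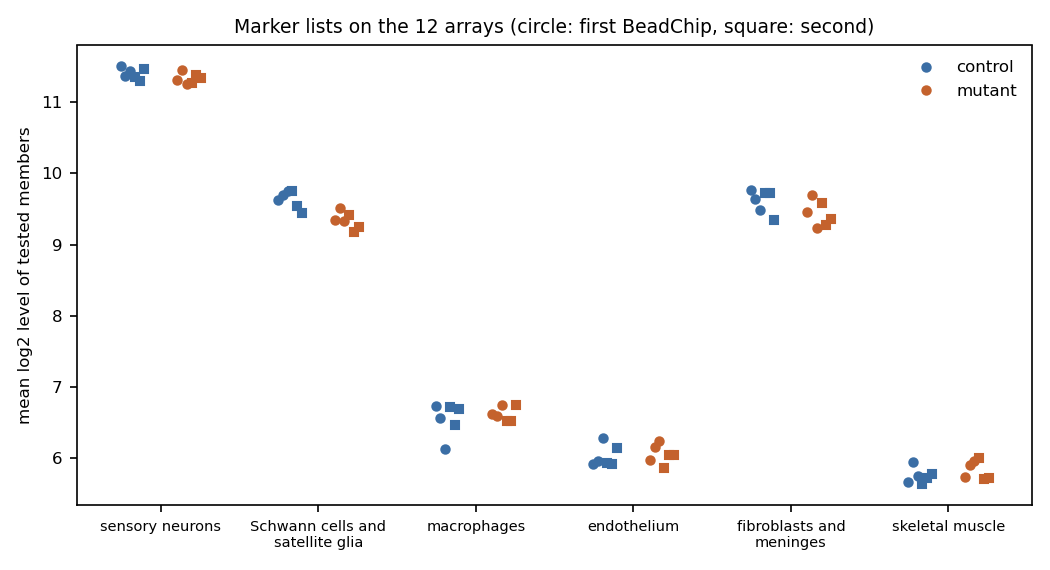
Mean log2 level of the tested markers of each cell type in every pool, controls beside mutants, with circles for the first BeadChip and squares for the second. The list of Schwann cells and satellite glia runs from 9.44 to 9.75 in controls and from 9.18 to 9.51 in mutants, and the sensory neuron list from 11.30 to 11.50 and from 11.26 to 11.45.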

How the data were processed

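Intensity and detection p-value columns of 12 arrays were deposited. The deposited intensity is GenomeStudio's bead summary per the submitters' processing notes, with no version given. The detection p-values are named in the file headers. A further deposited table holds processed intensity on a linear scale, with negative values down to -25.1. The sources used here do not say how it was made, and it served as an alternative and for the linear control values. Log2 levels were computed with neqc in limma 3.58.1 (R 4.3.3, offset 16). A probe was tested when 6 or more of the 12 arrays detected it at p under 0.05, which held for 13177 of 25697, with lmFit and eBayes on genotype and Benjamini-Hochberg adjustment. Maf passed that filter through its control arrays alone. Probes outside the filter were read from the same fit over all probes. The number of arrays limits the precision. Levels of different probes cannot be set against each other.

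Symbols came from the platform annotation, and 23962 probes matched RefSeq (GRCm38.p6). A gene was represented by its brightest tested probe. The members and lists were chosen with earlier results of these data known. Named were all member probes, called genes and the 2 smallest p-values of each partner, zipper and target list, the 5 highest and 5 lowest correlations with Maf, and the brightest marker of each cell type, while other genes were named to account for a list or after their values were seen. The limma genotype fit was tested on simulated log2 levels, and the other steps were not. Alternatives covered background correction, normalization, filter, chip and single arrays.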

Additional observations from a re-analysis of the deposited data

Results flagged for a closer look

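Among 204 groups of 6 values looked at, for the Maf family probes, the tested genes of all lists and the mean levels of the cell type marker lists, 14 held a pool that stood far from the other 5 by Dixon's test, where chance gives 10.2. No Maf family probe was among them. All values are log2 levels, and 5 lay in controls and 9 in mutants.

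In mutant pool 3, which also correlated least with the other arrays, 3 stress and zipper genes stood high. Ddit3, a factor of the unfolded protein response, was at 9.25 against 7.99 to 8.44 in the other mutant pools. Jdp2 was at 8.27 against 7.35 to 7.67. Creb3 was at 9.93 against 9.49 to 9.62.

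In mutant pool 1, Jun was at 8.73 against 8.85 to 8.93 and Crem at 5.47 against 5.73 to 5.89. Srxn1, which repairs oxidised peroxiredoxins, was at 10.55 in mutant pool 5 against 10.28 to 10.37. Cryba4 was at 5.96 in mutant pool 2 against 6.29 to 6.41, and Cnga1 at 5.28 in mutant pool 6 against 5.62 to 5.76. Actn3, a muscle marker, was at 6.04 in mutant pool 4 against 5.38 to 5.60.

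Among controls, Nfe2l2 was at 6.95 in pool 5 against 6.51 to 6.67, and Fos at 6.87 in pool 6 against 7.36 to 7.64. Me1, the malic enzyme that makes NADPH, was at 11.45 in control pool 4 against 10.75 to 10.96. In the same pool S100b was at 9.86 against 9.52 to 9.63. C1qb, a complement gene of macrophages, was at 6.83 in control pool 3 against 7.54 to 7.88.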

How the results depend on the processing

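Maf was called lower under all 23 alternatives run, with log2 changes from -3.42 to -1.85 and adjusted p-values from 8.22e-10 to 0.0112. Leaving out 1 array gave -2.93 to -2.78. With a control array left out, Maf was detected on fewer arrays than the filter asks and was read from the fit over all probes. No other member probe was called under any alternative run. On the second chip alone the change was 0.0198 for Mafa probe 1, 0.13 for Mafa probe 3, 0.0125 for Mafg, and -0.0304 and -0.0319 for Maff probes 1 and 2, which turned their directions. Leaving out 1 array gave -0.0875 to 0.0305 and -0.16 to 0.0456 for Mafa probes 1 and 3, and -0.0106 to 0.0253 for Maff probe 2. At a detection p under 0.01 none of the Mafa, Maff and Nrl probes was detected. The 28 lower calls became 4 on the first chip alone, 1 on the second, and 18 to 34 with 1 array left out, with 18 without control pool 6. The 3 higher calls became 1 with an offset of 50, 1 with detection at p under 0.01, 0 on either chip alone, and 1 to 3 with 1 array left out. The crystallin list had 0 calls on the second chip alone. Of the 10 genes most like or unlike Maf, 9 were shared with the processed table, 3 after centring within chips and 0 to 3 after leaving out a control pool. Deviations of same-numbered pools correlated above 0.1 in 3 of 6 pairs (-0.12 to 0.19), and 2 of 6 correlated best with their own number, so pairing was not established. With the replicate block the calls were 21 lower and 2 higher, Maf kept its change of -2.87, and no other member was called. The causes of these shifts were not tested. Signal close to background limits the other members except Mafg.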
